A study of Rattus norvegicus with 12 samples.

Results

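Matrix proteases and their inhibitors were followed in the rat heart after myocardial infarction. The genes were taken by symbol: the matrix metalloproteinases (Mmp), the tissue inhibitors of metalloproteinases (Timp), the ADAM proteases and the ADAMTS and ADAMTS-like genes. This rule found 75 of the 30560 genes listed, namely 23 Mmp, 3 Timp, 25 Adam, 19 Adamts and 5 Adamtsl genes. Timp2 was not analysed here. RNA was sequenced from fixed, paraffin-embedded heart sections of 12 male Wistar rats, 1 library per rat. Surgery took place at 7 weeks of age. Rats 12, 17, 32 and 38 had sham surgery without a ligation and also received vehicle (Sham). Rats 36, 57, 61 and 89 had a permanent ligation of the left anterior descending coronary artery and received vehicle (MI). Rats 29, 58, 64 and 66 had the same ligation and received urolithin A, a compound that gut bacteria make from ellagitannins, by daily gavage for 8 weeks (MI + UA). The sources differ on the dose of urolithin A and on the day it began. Rat 66 is labelled MI + UA but stands with the vehicle rats in the echocardiography table of the study, and it was counted here by its label.

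The extracellular matrix of the heart is cleaved by secreted and membrane-bound zinc proteases, most of which are made as inactive proenzymes. Mmp enzymes cut collagens, gelatin, elastin and proteoglycans, ADAM proteins release the outer parts of membrane proteins, and ADAMTS proteins process procollagen, proteoglycans and microfibril components. TIMP proteins bind the active site of Mmp enzymes one to one, and Timp3 also inhibits ADAM17 and several ADAMTS enzymes. After an infarct the dead muscle is replaced by a collagen scar, and these enzymes take part in both the removal and the assembly of matrix. The messenger RNA measured here gives neither the amount of protein nor its activity.

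Reads on genes numbered from 6228706 to 19031695 per library, and the 13 mitochondrially encoded genes took from 50.2% to 58.6% of them. Levels are given as CPM, the counts per 1000000 counts of a library after scaling with TMM, a method that sets libraries to a common composition. CPM are not divided by gene length, so levels of different genes were not compared. The label of heart tissue was checked with cardiomyocyte markers, whose summed level was 51762 to 56826 CPM in Sham, 36776 to 44355 in MI and 38125 to 49692 in MI + UA. Of 9 such markers 7 were lower and 1 was higher in MI than in Sham, and the count higher was 0 without MI rat 36, 57 or 89 or Sham rat 12, 32 or 38. Of 10 fibroblast markers 7 were higher, with a summed level of 1176 to 1493 CPM in Sham and 2292 to 3731 in MI. Of 10 macrophage markers 9 were higher, with 132 to 165 CPM in Sham and 265 to 423 in MI. Of 8 endothelial markers 0 were higher and 1 was lower. Of 7 mast cell, 4 mesothelial and 3 testis markers tested, 0 were higher and 0 lower. Of 6 markers of cartilage or bone, the substrate Acan among them, 5 were higher, with 17.5 to 20.1 CPM in Sham and 44.2 to 97.5 in MI, and of 8 smooth muscle markers 3 were higher. MI rat 36 held all 405 MI counts of Col2a1 and 126 of the 148 of Acan. The cartilage and bone markers past the threshold were 3 (Chad, Sox9 and Spp1) without MI rat 36 or Sham rat 12, 17 or 38, and 4 without Sham rat 32. Past it in smooth muscle was 1 marker without MI rat 36 or 61 or Sham rat 12 or 17. The neutrophil genes Elane, Mpo and Retnlg had no count in any library. The neutrophil genes Csf3r, Cxcr2 and S100a9 had enough counts for a test and 0 of them passed, with a summed level of the whole list of 1.44 to 2.76 CPM in Sham and 2.27 to 3.92 in MI. The part of these shifts in the results for the proteases was not tested. In whole tissue, more RNA per cell and more cells of a type cannot be told apart.

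Many proteases and the inhibitors Timp1 and Timp3 were higher in MI than in Sham. Of the 75 genes, 60 had the 10 counts in total needed for a test, and 23 of these 60 passed an adjusted p under 0.05 in edgeR's quasi-likelihood test of MI against Sham. That is 38.3% of those tested, beside 11.4% of all 18182 genes tested. There were 17 genes that rose (28.3%, beside 5.82% of all genes) and 6 that fell (10%, beside 5.53%). MI and Sham rats did not overlap at 23 of the 60 genes, or 38.3%, beside 15.7% of all genes. The median log2 fold change was 0.73 over the 3 Timp genes, 0.95 over the 18 Mmp genes tested, 0.19 over 15 Adam, 0.26 over 19 Adamts and 0.51 over 5 Adamts-like genes, beside 0.03 over all genes. With genes at 3 or fewer Sham counts put at their plain ratio or bound, the Mmp median was 1.02 and the others did not move. Over the 11 tested Mmp genes with more than 3 Sham counts it was 0.70. Of the 60 genes, 8 had 3 counts or fewer in the 4 Sham rats together, so their passing the count minimum rested on infarcted rats. Those were Mmp3, Mmp8, Mmp9, Mmp12, Mmp13, Mmp20, Mmp21 and Adam30. The 15 genes under the minimum were Mmp1, Mmp1b, Mmp7, Mmp10, Mmp27, Adam2, Adam3a, Adam5, Adam7, Adam18, Adam24, Adam26a, Adam28, Adam34 and Adam34l. The count of genes that fell was 3 without Sham rat 32 and 3 without MI rat 57.

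**Figure D1:**
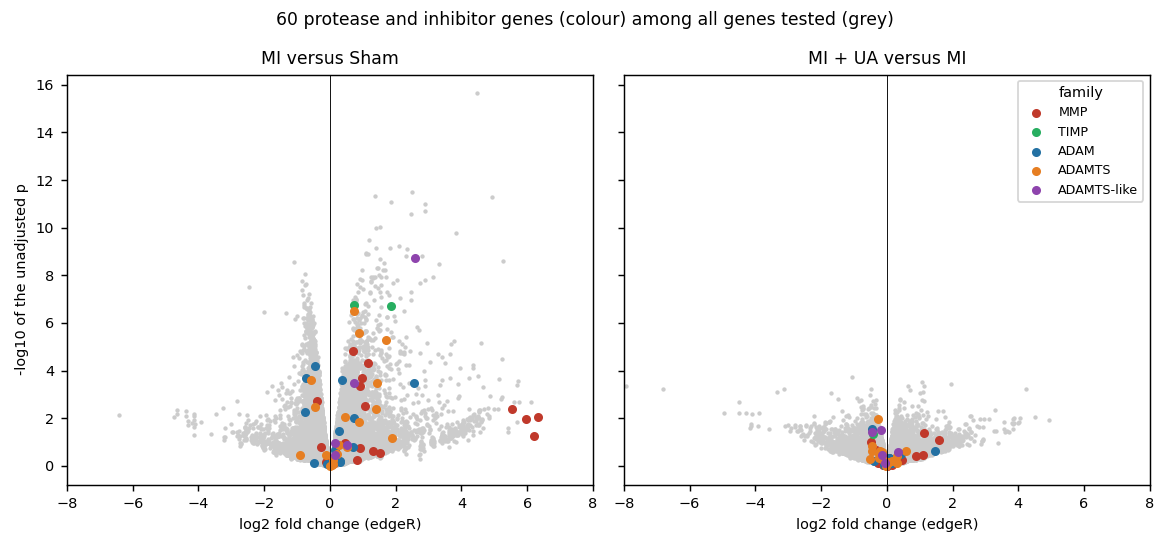
Each point is a gene, with the edgeR log2 fold change on the x axis and −log10 of the unadjusted p on the y axis, for MI versus Sham (left) and MI + UA versus MI (right). Grey points are the 18182 genes tested and coloured points the 60 proteases and inhibitors; on the left 23 of the 60 passed an adjusted p under 0.05, and on the right 0 did. Axes are cut at a log2 fold change of −8 and 8.

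Timp1 was the inhibitor with the largest change. Its level (ENSRNOG00000010208) was 1.63, 2.6, 3.54 and 3.82 CPM in the Sham rats and 8.48, 12.4, 12.5 and 9.04 CPM in the MI rats. The MI + UA rats had 8.00, 10.1, 13.8 and 8.83 CPM. Every infarcted rat was above every Sham rat, and MI and MI + UA overlapped. The change of MI against Sham on the log2 scale was 1.86 (standard error 0.24, edgeR adjusted p = 4.01e-05).

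Timp3, the inhibitor that stays bound to matrix, went the same way by a smaller factor. Its level (ENSRNOG00000004303) was 125, 139, 154 and 153 CPM in Sham, 221, 248, 233 and 244 CPM in MI, and 267, 259, 224 and 204 CPM in MI + UA. Sham did not overlap with either infarcted group. The log2 fold change in MI was 0.73 (standard error 0.09, edgeR adjusted p = 3.64e-05).

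Timp4, which the adult heart is known to express, did not pass the test. Its level (ENSRNOG00000007955) was 37.4, 25.0, 51.2 and 42.7 CPM in Sham, 26.0, 42.8, 40.3 and 49.9 CPM in MI, and 28.6, 37.2, 33.0 and 20.7 CPM in MI + UA. The 3 groups overlapped. The log2 difference between MI and Sham was 0.02 (standard error 0.20, edgeR adjusted p = 0.966), with a range of −0.14 to 0.19 when each rat was left out. In the GRCr8 gene order of RefSeq, Timp1, Timp3 and Timp4 overlap the synapsin genes Syn1, Syn3 and Syn2, in whose introns they are known to lie. The strand setting of the counting is not given in the sources used here, so reads of such pairs could not be separated with certainty. The synapsins had mean levels of 0.619 to 5.19 CPM in Sham and did not pass the test in MI, with log2 differences from −0.35 to 0.21.

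**Figure D2:**
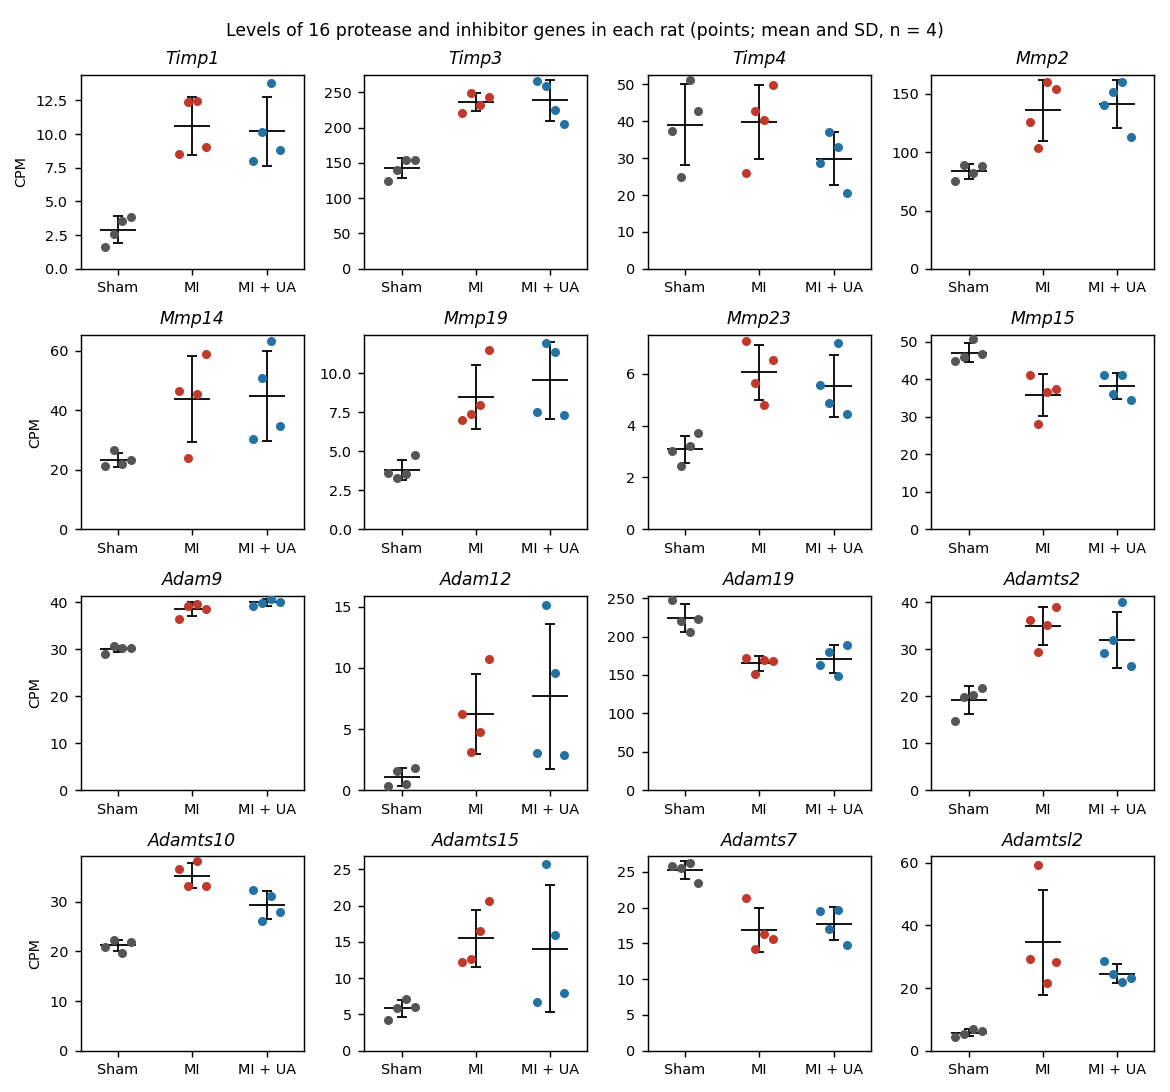
Level in CPM (y axis, from 0) of 16 genes in each of the 4 Sham, 4 MI and 4 MI + UA rats; points are rats, and the long tick and bar are the mean and SD. Timp1, Timp3, Mmp2, Mmp19, Mmp23, Adam9, Adam12, Adamts2, Adamts10 and Adamtsl2 were higher in every infarcted rat than in every Sham rat. Timp4 overlapped between all groups, and Mmp15, Adam19 and Adamts7 were lower in every infarcted rat.

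Among the gelatinases, which digest denatured collagen, Mmp2 rose. Its level (ENSRNOG00000016695) was 75.0, 88.6, 82.3 and 88.5 CPM in Sham, 126, 103, 160 and 154 CPM in MI, and 140, 152, 160 and 113 CPM in MI + UA. All 8 infarcted rats were above the Sham rats. edgeR put the change in MI at 0.70 on the log2 scale (standard error 0.12, edgeR adjusted p = 0.000773). Mmp9, the gelatinase known from neutrophils and macrophages, had no count in any Sham rat. It was at 0.366, 0.157, 0.104 and 1.47 CPM in MI and at 0.343, 0.128, 1.35 and 0.225 CPM in MI + UA. Set against a floor of 3 counts over the Sham group, Mmp9 was at least 5.80-fold higher in MI and at least 4.06-fold higher in MI + UA. Its call in MI (edgeR adjusted p = 0.0396) was lost without Sham rat 12, 17, 32 or 38 or MI rat 89, where the adjusted p ran from 0.0781 to 0.156. Rat 89 held 18 of the 25 MI counts, and without it the bound for MI was 2.30-fold. Without MI + UA rat 64 the bound for MI + UA was 2.49-fold.

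Of the 6 membrane-type Mmp genes, 2 rose and 1 fell in MI, beside 5.82% and 5.53% of all genes tested. Mmp14 encodes a collagenase of the cell surface that also activates pro-Mmp2. Its level (ENSRNOG00000010947) was 21.3, 26.8, 21.9 and 23.5 CPM in Sham, 46.5, 24.1, 45.5 and 59.1 CPM in MI, and 30.6, 50.9, 63.2 and 34.8 CPM in MI + UA. MI rat 57 lay within the Sham rats, and the other infarcted rats were above them. In MI the log2 change came to 0.92 (standard error 0.22, edgeR adjusted p = 0.00808).

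Mmp17, which is held to the membrane by a lipid anchor, had 1.88, 1.44, 0.673 and 2.03 CPM in Sham and 2.92, 2.51, 3.43 and 4.16 CPM in MI. The MI + UA rats had 4.11, 1.8, 3.38 and 2.59 CPM, of which rat 58 fell among the Sham rats. Against Sham, MI differed by 1.08 on the log2 scale (standard error 0.32, edgeR adjusted p = 0.0324), and the adjusted p was 0.0694 to 0.111 without Sham rat 17, Sham rat 32, MI rat 61 or MI rat 89. Mmp15 was the Mmp gene that fell. It had 44.8, 46.0, 50.7 and 46.7 CPM in Sham, 41.2, 28.1, 36.6 and 37.5 CPM in MI, and 41.2, 36.1, 41.3 and 34.4 CPM in MI + UA. Sham rats were the highest throughout. On the log2 scale the change in MI was −0.38 (standard error 0.11, edgeR adjusted p = 0.0229), and the adjusted p was 0.0533 to 0.0773 without Sham rat 32, Sham rat 38 or MI rat 57.

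Mmp19 and Mmp23, which belong to none of the classical Mmp classes, also rose. Mmp19 (ENSRNOG00000006778) had 3.64, 3.32, 3.54 and 4.77 CPM in Sham, 7.02, 7.37, 7.99 and 11.5 CPM in MI, and 7.54, 11.9, 11.4 and 7.31 CPM in MI + UA. The log2 fold change in MI was 1.15 (standard error 0.22, edgeR adjusted p = 0.00175). Mmp23 had 3.01, 2.45, 3.20 and 3.70 CPM in Sham, 7.24, 5.65, 4.77 and 6.52 CPM in MI, and 5.54, 4.88, 7.17 and 4.45 CPM in MI + UA. Infarcted and Sham rats did not overlap for either gene. The log2 fold change of Mmp23 in MI was 0.97 (standard error 0.22, edgeR adjusted p = 0.00461).

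The other Mmp genes include collagenases, stromelysins and the macrophage elastase Mmp12, and 10 of them stand next to each other on rat chromosome 8. Their order in GRCr8 is Mmp13, Mmp12, Mmp1b, Mmp3, Mmp1, Mmp10, Mmp8, Mmp27, Mmp20 and Mmp7. In these hearts 4 of the 10 had no count in any library (Mmp1b, Mmp1, Mmp10 and Mmp27), Mmp7 had 2 counts, and 5 were tested. These genes are textbook examples of promoters with a TATA box and a site for the transcription factor AP-1 close to the start. The windows of Mmp13, Mmp12 and Mmp3, the cluster genes with the most counts, are printed beside that of Mmp10, which had none. Each runs from 250 bases before to 50 after the gene start (RefSeq, GRCr8, plus strand, in the order chr8:12782579-12782878, chr8:12866402-12866701, chr8:12925031-12925330 and chr8:12974457-12974756). Capitals mark matches on either strand to the AP-1 motif TGANTCA. They also mark the TATA box, searched as the letters TATAAA.
Mmp13: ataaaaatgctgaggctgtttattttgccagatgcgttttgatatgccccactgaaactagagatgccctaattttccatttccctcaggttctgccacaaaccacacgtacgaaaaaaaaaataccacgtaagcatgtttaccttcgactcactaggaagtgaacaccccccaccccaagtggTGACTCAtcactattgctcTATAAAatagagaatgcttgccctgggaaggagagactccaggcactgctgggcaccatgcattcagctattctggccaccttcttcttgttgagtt
Mmp12: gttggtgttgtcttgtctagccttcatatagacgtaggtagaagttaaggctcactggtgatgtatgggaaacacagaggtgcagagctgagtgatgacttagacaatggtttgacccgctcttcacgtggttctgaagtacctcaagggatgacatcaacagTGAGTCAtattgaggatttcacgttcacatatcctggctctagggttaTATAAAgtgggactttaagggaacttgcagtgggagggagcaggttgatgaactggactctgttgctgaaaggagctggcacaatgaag
Mmp3: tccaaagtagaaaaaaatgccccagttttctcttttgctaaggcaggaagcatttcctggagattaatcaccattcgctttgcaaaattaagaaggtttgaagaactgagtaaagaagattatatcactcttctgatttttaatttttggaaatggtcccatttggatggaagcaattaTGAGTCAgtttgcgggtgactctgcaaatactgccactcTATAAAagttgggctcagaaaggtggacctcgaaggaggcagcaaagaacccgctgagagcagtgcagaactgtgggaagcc
Mmp10: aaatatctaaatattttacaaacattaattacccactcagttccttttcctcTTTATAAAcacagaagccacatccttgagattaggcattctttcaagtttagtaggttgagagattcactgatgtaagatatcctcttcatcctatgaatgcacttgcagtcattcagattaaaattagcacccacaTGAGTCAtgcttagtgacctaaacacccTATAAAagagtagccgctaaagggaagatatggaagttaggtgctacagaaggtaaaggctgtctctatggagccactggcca
The AP-1 match began 66 bases before the start in Mmp13, 87 in Mmp12, 71 in Mmp3 and 61 in Mmp10. Mmp10 thus had the same pair of matches without any count. In the whole cluster 7 of 10 windows held the AP-1 letters and 8 of 10 the TATA letters, beside 7.33% and 14.2% of all 33469 RefSeq windows of this length. The AP-1 letters were present for 4 of the 5 tested genes and 3 of the 5 others. Over the 63 windows found for 52 of the 75 symbols the shares were 14.3% and 30.2%. Of the 10 windows found for genes that rose in MI, 0 held the AP-1 letters. This says only that these letters were not in those windows. No window was found for the risen genes Mmp2, Mmp9, Mmp14, Mmp17, Mmp19, Adam9, Adamts8 and Adamts15.

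Mmp12 had the most counts of the cluster. Its level (ENSRNOG00000030187) was 0, 0, 0.168 and 0.119 CPM in Sham, 0.877, 0.314, 1.97 and 15.7 CPM in MI, and 0.400, 18.4, 44.8 and 2.76 CPM in MI + UA. Every infarcted rat was above every Sham rat, and rats within an infarcted group differed by more than the group means did. With 2 Sham counts in all, the ratio of MI to Sham was 78.7 (95% exact interval 21.5 to 654, counting error only), and that of MI + UA to Sham was 154 (42.3 to 1271). The edgeR adjusted p was 0.078 for MI and 0.0103 for MI + UA against Sham. Rat 89 held 193 of the 226 MI counts, and without it the ratio of MI to Sham was 16.2 and the adjusted p 0.413. The ratio of MI was 125 without Sham rat 32, and that of MI + UA was 67.5 without MI + UA rat 64, 232 without MI + UA rat 29 and 245 without Sham rat 32. The adjusted p of MI was 0.0305 without MI + UA rat 29, 0.0324 without MI + UA rat 64 and 0.00518 with DESeq2.

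Mmp3 (stromelysin-1) and Mmp13 (the main interstitial collagenase of rodents) are named with values after these had been seen. Neither had a count in Sham. Mmp3 was at 0, 0, 0.311 and 3.01 CPM in MI and 0, 6.16, 2.84 and 0 CPM in MI + UA, at least 9.29-fold higher in MI and at least 13.3-fold higher in MI + UA against the floor of 3 counts over the Sham group. Mmp13 was at 2.27, 0, 0.311 and 0.978 CPM in MI and 0.114, 1.93, 2.30 and 0 CPM in MI + UA, at least 10.7-fold and at least 6.57-fold higher. Both groups of infarcted rats included rats without a count. For Mmp3, rat 89 held 37 of the 40 MI counts, and the 3 that remain without it equal the floor, so that no fold can be given. The bound of Mmp3 in MI + UA was 4.80-fold without rat 58, 20.4-fold without rat 29 and 20.6-fold without rat 66. For Mmp13, rat 36 held 31 of the 46 MI counts, and the bound in MI was 5.17-fold without it. The bound of Mmp13 in MI + UA was 3.85-fold without rat 64, 4.34-fold without rat 58 and 10.1-fold without rat 66. The edgeR adjusted p of MI against Sham was 0.22 for Mmp3 and 0.068 for Mmp13. It was 0.684 for Mmp3 without MI rat 89 and 0.171 for Mmp13 without MI rat 36, and that of Mmp13 was 0.0425 without MI rat 57 and 0.0303 without MI + UA rat 66.

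Some proteases varied together among the infarcted rats, which was seen in the values and is given without a test. Rats 58 and 64 of MI + UA and rat 89 of MI held the 3 highest levels of the 8 infarcted rats at Mmp3, Mmp12, Mmp14, Mmp16, Mmp19, Adam12 and Adamtsl1. These are 7 of 60 genes, or 11.7%, beside 3.08% of all genes tested and 10.8% of the genes that were higher in MI than in Sham. The 3 rats were picked from the levels of these same genes, so the count describes them and nothing about proteases in particular is read from it. The same rats had the highest summed fibroblast markers, 3580 to 3796 CPM beside 2292 to 3006 in the other 5 infarcted rats. Col3a1 alone made up 1531 to 1592 CPM of these sums in the 3 rats. They held the 3 highest levels at Col1a1, Col1a2, Col3a1, Lum and Postn but not at the other fibroblast markers. In rat 58, Pdgfra and Fbln1 lay within the range of the other 5 infarcted rats. Rats 58, 64 and 89 also had the highest summed macrophage markers, 406 to 454 CPM beside 224 to 337. Lyz2 alone made up 209 to 229 CPM of these sums in the 3 rats. They held the 3 highest levels at Lyz2 and Cd68 but not at the other macrophage markers. Cd163, for one, was highest in rat 57 at 30.9 CPM. The part of these markers in the levels of the proteases was not tested.

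**Figure D3:**
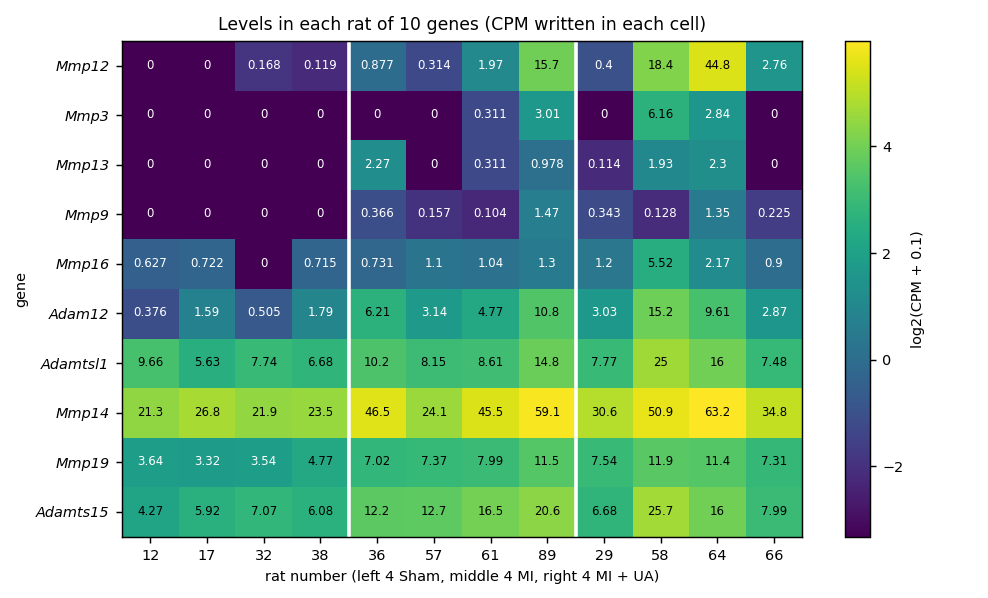
Colour gives log2(CPM + 0.1) and the printed number the CPM of 10 genes (rows, picked after their values were seen) in each rat (columns), with white lines between Sham, MI and MI + UA. Mmp12, Mmp3, Mmp14, Mmp19, Adam12, Adamtsl1 and Mmp16 were highest in rats 89, 58 and 64 among the infarcted rats.

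Of the 8 ADAM proteases with wide expression that were tested, 2 rose and 1 fell in MI. Of all genes tested 5.82% rose and 5.53% fell. Adam12, a protease known from fibrosis and muscle regeneration, changed the most. Its level (ENSRNOG00000018384) was 0.376, 1.59, 0.505 and 1.79 CPM in Sham, 6.21, 3.14, 4.77 and 10.8 CPM in MI, and 3.03, 15.2, 9.61 and 2.87 CPM in MI + UA. All infarcted rats were above the Sham rats, with a wide spread among them. edgeR put the change in MI at 2.55 on the log2 scale (standard error 0.59, edgeR adjusted p = 0.00654).

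Adam9 rose by little but without overlap. It had 29, 30.6, 30.3 and 30.2 CPM in Sham, 36.3, 39.2, 39.6 and 38.6 CPM in MI, and 39.1, 39.8, 40.7 and 40.1 CPM in MI + UA. In MI the log2 change came to 0.36 (standard error 0.08, edgeR adjusted p = 0.00551). Adam19, a protease needed for the development of heart valves, fell. Its level (ENSRNOG00000042980) was 248, 221, 205 and 223 CPM in Sham, 172, 151, 170 and 168 CPM in MI, and 164, 181, 148 and 190 CPM in MI + UA. Every Sham rat was above every infarcted rat. Against Sham, MI differed by −0.44 on the log2 scale (standard error 0.09, edgeR adjusted p = 0.00211).

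Adam10 and Adam17, the main sheddases of Notch receptors and of tumor necrosis factor, did not pass the test. Adam10 had 87.2, 84.4, 87.2 and 88.0 CPM in Sham and 84.1, 78.6, 94.2 and 84.9 CPM in MI, a log2 difference of −0.02 (standard error 0.08, edgeR adjusted p = 0.919), between −0.07 and 0.02 when each rat was left out. Adam17 had 32.6, 24.0, 28.4 and 24.3 CPM in Sham and 30.0, 25.9, 33.5 and 31.2 CPM in MI, a log2 difference of 0.15 (standard error 0.11, edgeR adjusted p = 0.48). Both genes overlapped between the groups. In MI + UA the levels were 84.9 to 95.0 CPM for Adam10 and 25.9 to 32.5 CPM for Adam17.

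Outside these sheddases, 2 more ADAM genes fell in MI, beside 5.53% of all genes tested. They were 1 of the 3 tested genes without protease activity and 1 of the 4 other genes tested. Adam1a, known from sperm, had 51.3, 51.4, 58.6 and 50.0 CPM in Sham, 40.0, 25.4, 31.4 and 30.2 CPM in MI, and 20.8, 32.4, 41.7 and 36.2 CPM in MI + UA. Sham did not overlap with the infarcted groups, and the log2 fold change in MI was −0.72 (standard error 0.16, edgeR adjusted p = 0.00461). Adam11, which lacks protease activity, had 13.3, 6.35, 6.57 and 5.25 CPM in Sham and 5.48, 3.76, 3.84 and 5.30 CPM in MI, and these groups overlapped. The MI + UA rats had 4.75 to 5.68 CPM. Its log2 fold change was −0.75 (standard error 0.24, edgeR adjusted p = 0.0479). Without Sham rat 12, which was far above the others, the log2 fold change was −0.36 and the edgeR adjusted p 0.293. It was 0.0519 to 0.132 without Sham rat 32, MI rat 57, 61 or 89, or MI + UA rat 29, 64 or 66.

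Of the 19 ADAMTS proteases, 5 rose and 2 fell in MI, beside 5.82% and 5.53% of all genes tested. Adamts2, which removes the amino-terminal propeptide of procollagens, rose. Its level (ENSRNOG00000061484) was 14.8, 19.8, 20.2 and 21.7 CPM in Sham, 36.1, 29.3, 35.1 and 38.9 CPM in MI, and 29.1, 32, 40.1 and 26.5 CPM in MI + UA. Infarcted and Sham rats did not overlap, and the log2 fold change in MI was 0.88 (standard error 0.14, edgeR adjusted p = 0.000237). Of the related procollagen proteinases, both named here after their values were seen, Adamts3 had a log2 difference of 0.08 and Adamts14 of 0.88 (edgeR adjusted p = 0.923 and 0.0947).

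Adamts10 and Adamts17, whose proteins act on fibrillin microfibrils, both rose. Adamts10 (ENSRNOG00000008857) had 21.0, 22.4, 19.7 and 21.8 CPM in Sham, 36.6, 33.1, 38.2 and 33.2 CPM in MI, and 32.3, 26.1, 31.1 and 28.0 CPM in MI + UA. The 3 groups did not overlap, with MI highest and MI + UA between. The change of MI against Sham on the log2 scale was 0.73 (standard error 0.10, edgeR adjusted p = 5.82e-05). Adamts17 had 1.38, 2.6, 1.35 and 1.91 CPM in Sham, 7.31, 5.65, 3.94 and 6.52 CPM in MI, and 6.86, 4.37, 4.87 and 3.83 CPM in MI + UA. Its infarcted rats were all above the Sham rats, and the log2 fold change in MI was 1.70 (standard error 0.28, edgeR adjusted p = 0.000382).

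Of the 7 proteases of aggrecan and versican, 2 rose in MI, beside 5.82% of all genes tested. Adamts15 had 4.27, 5.92, 7.07 and 6.08 CPM in Sham, 12.2, 12.7, 16.5 and 20.6 CPM in MI, and 6.68, 25.7, 16 and 7.99 CPM in MI + UA. MI did not overlap with Sham, while MI + UA rat 29 lay among the Sham rats. On the log2 scale the change in MI was 1.43 (standard error 0.33, edgeR adjusted p = 0.00674). Adamts8 had 0.502 to 0.842 CPM in Sham and 1.75, 2.51, 2.28 and 0.733 CPM in MI, of which rat 89 fell among the Sham rats, and 0.900 to 1.71 CPM in MI + UA. The log2 fold change in MI was 1.42 (standard error 0.44, edgeR adjusted p = 0.0392), and the adjusted p was 0.0581 to 0.112 without any 1 of the Sham rats or MI rat 36, 57 or 61. Adamts1 and Adamts5, the versican and aggrecan proteases most often studied in the heart and in cartilage, did not pass the test. Adamts1 had 38.8 to 76.4 CPM in Sham, 56.7 to 98.9 in MI and 47.0 to 75.8 in MI + UA (log2 difference 0.20, standard error 0.19, edgeR adjusted p = 0.594). Adamts5 had 22.2 to 27 CPM in Sham, 19.9 to 32.4 in MI and 19.4 to 32.1 in MI + UA (0.09, standard error 0.16, edgeR adjusted p = 0.791; −0.00 to 0.20 when each rat was left out).

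Adamts7 and Adamts12, which cleave the cartilage matrix protein Comp, both fell. Adamts7 had 25.8, 25.5, 26.3 and 23.5 CPM in Sham, 21.3, 14.3, 16.3 and 15.6 CPM in MI, and 19.5, 17.1, 19.6 and 14.7 CPM in MI + UA. edgeR put the change in MI at −0.57 on the log2 scale (standard error 0.13, edgeR adjusted p = 0.0052). Adamts12 had 63.4, 55.4, 73.6 and 73.3 CPM in Sham, 54.0, 46.4, 47.1 and 47.3 CPM in MI, and 38.4, 57.7, 42.5 and 63.0 CPM in MI + UA. Sham and MI did not overlap for either gene. For Adamts12 the log2 change was −0.44 (standard error 0.13, edgeR adjusted p = 0.0347), with an adjusted p of 0.0522 to 0.114 without Sham rat 12, 32 or 38 or MI rat 57, 61 or 89. Comp itself rose from 0.169 ± 0.0494 CPM (SD, n = 4) in Sham to 6.77 ± 3.33 (SD, n = 4) in MI. The part of the cartilage and bone markers, whose summed level was 17.5 to 20.1 CPM in Sham and 44.2 to 97.5 in MI, in these values was not tested.

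The ADAMTS-like proteins have no protease domain and bind fibrillin and other matrix proteins. Of the 5 genes 2 rose in MI, beside 5.82% of all genes tested. Adamtsl2, which is known to bind latent TGF-beta binding protein and fibrillin, was the one with the larger change. Its level (ENSRNOG00000027742) was 4.39, 5.20, 6.90 and 6.32 CPM in Sham, 29.2, 59.3, 21.5 and 28.4 CPM in MI, and 28.8, 24.5, 21.9 and 23.2 CPM in MI + UA. The lowest infarcted rat was above the highest Sham rat. In MI the log2 change came to 2.58 (standard error 0.25, edgeR adjusted p = 1.56e-06), and to 2.22 without MI rat 57. Adamtsl3 had 14.8, 11.8, 17.2 and 15.4 CPM in Sham, 20.8, 23.5, 27.1 and 27.2 CPM in MI, and 28.8, 24.4, 21.0 and 14.6 CPM in MI + UA. MI did not overlap with Sham, and MI + UA rat 66 fell among the Sham rats. The log2 fold change of Adamtsl3 in MI was 0.74 (standard error 0.17, edgeR adjusted p = 0.00675).

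**Figure D4:**
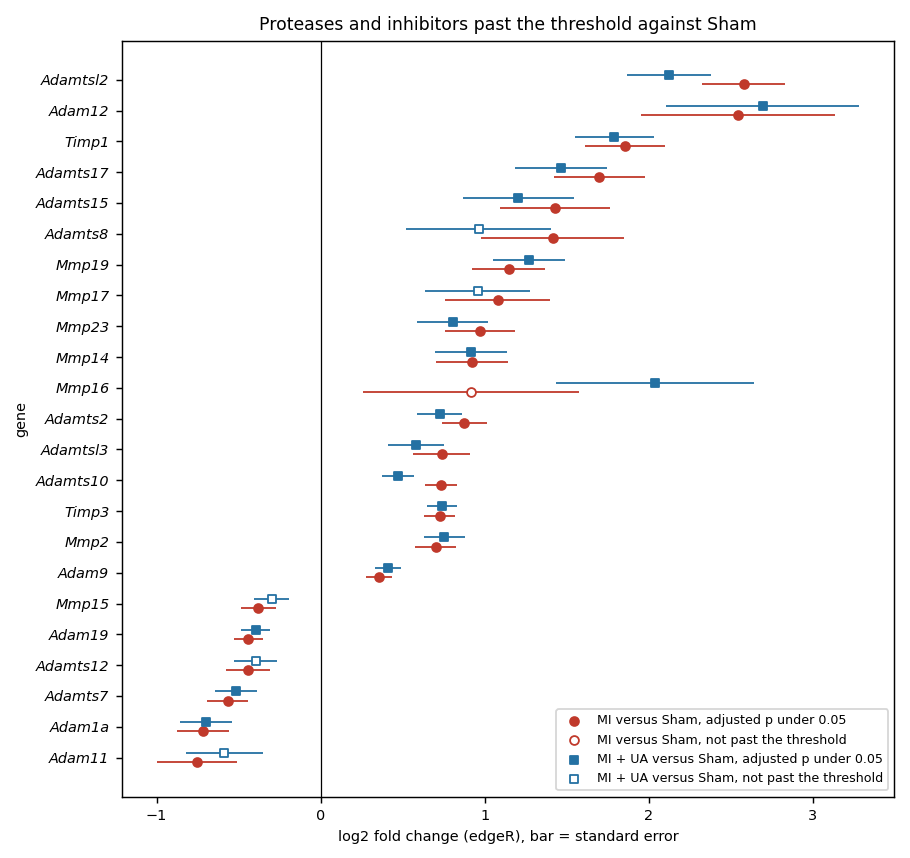
edgeR log2 fold change with its standard error (x axis) of the 23 genes with more than 3 Sham counts that passed an adjusted p under 0.05 in MI (red circles) or MI + UA (blue squares) against Sham; open marks did not pass. Of the filled red circles 16 lie to the right of 0 and 6 to the left; Mmp9 and Mmp12, with 3 or fewer Sham counts, are not drawn.

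MI + UA was compared with MI to ask whether urolithin A changed these genes in the infarcted heart. Of the 60 genes 0 passed the adjusted threshold in edgeR or in DESeq2, beside 0% of all genes tested. At an unadjusted p under 0.05 there were 6 of the 60, or 10%, beside 3.79% of all genes. Lower in MI + UA were Adamts10 (log2 difference −0.26, standard error 0.09), Adamtsl2 (−0.46, standard error 0.21), Adamtsl4 (−0.19, standard error 0.08), Adam33 (−0.45, standard error 0.19) and Timp4 (−0.43, standard error 0.20). Higher was Mmp16 (1.12, standard error 0.52). In edgeR's test each of the 6 had an adjusted p of 1. The difference of Mmp16 was 0.37 without MI + UA rat 58, and that of Adamtsl2 was −0.10 without MI rat 57.

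The rats of MI and MI + UA did not overlap at 2 of the 60 genes, Adamts10 and Adamtsl4, or 3.33% beside 2.34% of all genes. Adamtsl4, a binding partner of fibrillin, had 77.2, 73.1, 76.7 and 73.9 CPM in MI and 69.3, 57, 66.5 and 70.4 CPM in MI + UA. The Sham rats had 66.7, 64.8, 67.5 and 74.0 CPM, so that 3 of them lay among the MI + UA rats. Adam33, an ADAM protease of mesenchymal cells, had 13.5, 11.1, 15.7 and 7.82 CPM in MI and 10.2, 8.60, 6.09 and 9.57 CPM in MI + UA, which overlapped. Mmp16, a further membrane-type Mmp, had 0.731, 1.10, 1.04 and 1.30 CPM in MI and 1.20, 5.52, 2.17 and 0.900 CPM in MI + UA. Rat 58 was the highest, rat 64 also lay above MI, and rats 29 and 66 lay among the MI rats.

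Apart from Timp4, given above, none of the inhibitors and proteases chosen by name passed even the unadjusted threshold between MI + UA and MI. The log2 difference was −0.07 (standard error 0.20) for Timp1, 0.01 (0.09) for Timp3, 0.05 (0.12) for Mmp2, −0.01 (0.21) for Mmp14 and −0.28 (0.79) for Mmp9. The value of Mmp9 turned to 1.00 without MI rat 89, 0.24 after thinning to equal depth and 0.23 with rat 66 counted in MI, and it was −1.14 without MI + UA rat 64. It was 0.06 (0.08) for Adam10, −0.05 (0.11) for Adam17, −0.21 (0.19) for Adamts1 and −0.10 (0.16) for Adamts5. A missed threshold does not show that the levels were alike.

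Against Sham, the MI + UA rats gave 19 genes past the threshold, or 31.7% of the 60 beside 9.44% of all genes. Of these, 16 were higher (26.7%, beside 5.16% of all genes) and 3 lower (5%, beside 4.27%). Both comparisons use the same Sham rats. Genes past the threshold in MI + UA but not in MI were Mmp12 and Mmp16. Genes past it in MI but not in MI + UA were Adam11, Adamts8, Adamts12, Mmp9, Mmp15 and Mmp17. The test of the difference between MI + UA and MI itself gave no call for any of these 8. Mmp16 had 0.627, 0.722, 0 and 0.715 CPM in Sham and rose by 2.04 on the log2 scale in MI + UA (standard error 0.60, edgeR adjusted p = 0.0368). Its adjusted p was 0.063 to 0.178 without any 1 of the Sham rats or MI + UA rat 58 or 64, and without rat 58 the change was 1.29. The log2 change of Adam12 in MI + UA was 2.70, and 2.11 without rat 58 (edgeR adjusted p = 0.0201). In MI + UA, Adamts15 had an edgeR adjusted p of 0.0263, and 0.0614 to 0.114 without Sham rat 12, 17 or 38 or MI + UA rat 58 or 64. Adamtsl3 had 0.0356, and 0.0561 to 0.141 without Sham rat 12, 17 or 38 or MI + UA rat 29, 58 or 64. Mmp23 had 0.0206, and 0.0697 and 0.0702 without Sham rat 17 and MI + UA rat 64.

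Each rat's log2 level of a protease minus that of its best-known inhibitor was compared between groups, with 4 values computed. For Adam17 and Timp3 this difference was −1.93, −2.53, −2.43 and −2.65 in Sham and −2.87, −3.26, −2.79 and −2.96 in MI. Every MI rat was below every Sham rat. The mean was lower by 0.58 in MI (two-sided exact permutation p = 0.0286, the smallest that 4 rats against 4 allow, and 0.114 after adjustment over the 4 values). Between MI + UA and MI it differed by −0.04 (exact permutation p = 0.686). For Mmp9 and Timp1 the groups differed by 0.15 for MI + UA against MI (exact permutation p = 0.857). Since Mmp9 had no count in Sham, the value of MI against Sham rests on the prior count of 1 added to all libraries, and no test of it is given. It was 0.27, and 1.88 with a prior count of 0.25.

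Other genes of matrix turnover were counted in lists, to be read beside the 5.82% of all genes tested that rose in MI and the 5.53% that fell. Of 13 tested genes of the plasminogen system, which activates several Mmp proenzymes, 4 rose in MI and none fell (edgeR), and 2 rose without MI rat 57 or Sham rat 17 or 32. Its members past the threshold were the protease inhibitor Serpine2 (log2 fold change 1.10), Anxa2 (0.59), which binds plasminogen activator at the cell surface, the urokinase Plau (1.49) and its receptor Plaur (1.11). The edgeR adjusted p of Plau was 0.0584 to 0.162 without any 1 of the Sham rats or MI rat 57, 61 or 89, and that of Plaur 0.0519 to 0.0776 without Sham rat 17 or 32 or MI rat 57, 61 or 89. Of 17 tested genes for activation, inhibition and uptake of secreted proteases, 6 rose and 1 fell. Those with the largest rise were Thbs1 (2.04), which binds Mmp enzymes, Pi16 (1.72), the uptake receptor Lrp1 (0.98) and the proprotein convertase Pcsk5 (0.86). Bsg, an inducer of Mmp genes, fell by 0.27 on the log2 scale, with an edgeR adjusted p of 0.0596 to 0.104 without Sham rat 17 or 38 or MI rat 36, 61 or 89.

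Of 10 tested regulators of ADAM10 and ADAM17, 1 rose. The count was 0 without MI rat 36 or 89 or Sham rat 17 or 32, and 2 without MI + UA rat 64, while the 1 gene past the threshold was Pacs2 without MI rat 61 and Cd9 without Sham rat 38. With all rats the gene that rose was Frmd8 (log2 fold change 0.45), which stabilizes the ADAM17 complex; its edgeR adjusted p was 0.0567 to 0.121 without Sham rat 17, 32 or 38 or MI rat 36, 61 or 89. Of 29 tested substrates 14 rose and none fell. Comp (5.25), fibronectin Fn1 (2.09), the proteoglycan Bgn (1.87) and the proteoglycan Acan had the largest log2 fold changes. Acan had 2 counts in the Sham rats together and 148 in the MI rats, a ratio of 51.5 (95% exact interval 14.0 to 430, counting error only), and its edgeR adjusted p was 0.0539 to 0.138 without Sham rat 12, 17 or 38 or MI rat 36. MI rat 36 held 126 of the 148 counts, and without it the ratio was 11.4. Sham rat 32 held both Sham counts, and without it Acan was at least 27.4-fold higher than the floor of 3 counts over the other Sham rats. Of 19 other extracellular proteases 6 rose and 1 fell. The count that fell was 0 without MI rat 36 or 89 or Sham rat 12, 17 or 38, and 2 without Sham rat 32. Ctsk (1.18), Ctss (1.10), Fap (0.93) and the procollagen C-proteinase Bmp1 (0.76) had the largest rises. Mme, the membrane protease neprilysin, fell by 1.01, with an edgeR adjusted p of 0.0584 to 0.14 without Sham rat 12, 17 or 38 or MI rat 36 or 89. The median log2 fold change in MI was 0.63 for the plasminogen list, 0.45 for activation and uptake, 0.33 for the regulators, 0.58 for the substrates and 0.30 for the other proteases, beside 0.03 over all genes. In MI + UA against MI, 0 genes of these lists passed the adjusted threshold in edgeR or DESeq2, and 5 of the 88 tested, or 5.68%, had an unadjusted p under 0.05, beside 3.79% of all genes.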

How the data were processed

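RNA was taken from fixed, paraffin-embedded heart sections and sequenced in pairs after depletion of ribosomal RNA with a strand-specific kit; the labels call the molecule polyA RNA. Per the labels, reads were mapped with STAR 2.6.1c to the rat genome mRatBN7.2 and assigned to genes with HTSeq, with MultiQC 1.8 for quality. The authors deposited raw counts per gene, without normalization. The study's methods name 1 more MI + UA library, which was not analysed here.

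The 5 summary lines of the counter were left out of library sizes; reads outside genes were 51.7% to 57.1% of all lines. Genes with at least 10 counts over the 12 libraries (18182 of 30560) were fitted with edgeR 4.0.16 (quasi-likelihood, TMM, the 3 groups in one fit) in R 4.3.3, with Benjamini-Hochberg adjustment over all of them and a threshold of 0.05. Standard errors are the log2 fold change divided by the square root of F. CPM are counts per 1000000 of the TMM-scaled library. A group at 0 was set to a floor of 3 counts over the group, and intervals are exact at 95%. Ratios of protease to inhibitor used a prior count of 1 and two-sided exact permutation tests (Python 3.11.15, scipy 1.17.1); the pairs with Timp2 could not be computed. Symbols were matched to RefSeq names and promoter windows of GRCr8, and no coordinates were carried between builds. The test was tried on simulated data first.

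Alternatives were DESeq2 1.42.0, a fit of the compared groups alone, filterByExpr, no filter, DESeq2 size factors, TMM without mitochondrially encoded genes, thinning to 6228706 reads, rat 66 counted in MI, and leaving out each rat; leaving out each rat for the counts of marker and other gene lists was chosen after seeing the data. Genes with values are Timp1, Timp3, Timp4, Mmp2, Mmp9, Mmp14, Adam10, Adam17, Adamts1 and Adamts5, those past the adjusted threshold against Sham, those with an unadjusted p under 0.05 in MI + UA against MI, and up to 4 per direction of each list; the others are said to be chosen after their values were seen. The genes and lists were chosen with earlier results of these data known. Each library is 1 rat, so p-values measure the spread between rats.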

Additional observations from a re-analysis of the deposited data

Results flagged for a closer look

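A rat far from the other 3 of its group was looked for in the 96 groups of 4 rats given by the 3 groups of the 32 named genes, on the scale log2(CPM + 0.1). Chance gives about 1 such case in 20 groups. For Adamts12, MI rat 36 was the highest at 54.0 CPM beside 46.4 to 47.3 CPM in the other MI rats, with 0.882 of the whole range lying in the gap. For Mmp16, Sham rat 32 was the lowest with no count beside 0.627 to 0.722 CPM in the other Sham rats, with 0.942 of the range in the gap. Rat 32 had the smallest library, with 6228706 reads on genes.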

How the results depend on the processing

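The number of genes higher in MI than in Sham ran from 14 to 19 over the fits that left out 1 rat, beside 17, and the number lower from 3 to 6, beside 6. Higher in MI + UA than in Sham were 12 to 20 genes and lower 3 to 4. No other setting moved any of these counts by more than 1.5 times, and MI + UA against MI gave 0 in every setting run. Leaving out each rat turned the sign of log2 differences that had passed no test. For MI against Sham these were Adam10 (−0.070 to 0.016), Adamts5 (−0.0036 to 0.20) and Timp4 (−0.14 to 0.19). For MI + UA against MI they were Adam17 (−0.11 to 0.0093), Adamts5 (−0.22 to 0.025), Mmp14 (−0.21 to 0.17), Mmp2 (−0.055 to 0.15), Mmp9 (−1.14 to 1.00), Timp1 (−0.23 to 0.038) and Timp3 (−0.047 to 0.082). So did the differences of Mmp9 and Timp1 (−0.40 to 0.73 for MI against Sham, −0.31 to 0.82 for MI + UA against MI) and of Adam17 and Timp3 (−0.14 to 0.074 for MI + UA against MI). With rat 66 counted in MI, the MI + UA difference was 0.058 for Adamts5, 0.23 for Mmp9, 0.17 for Mmp14 and 0.049 for Timp1, and Timp4 was −0.13 in MI against Sham. It was 0.24 for Mmp9 after thinning and 0.028 for Mmp14 with DESeq2. In MI against Sham, Adam11, Adamts8, Adamts12, Mmp9, Mme, Plau and Frmd8 lost their calls after thinning, and all of these but Mmp9 and Mme also with rat 66 in MI, and Adam11 and Adamts8 in a fit of the compared groups alone; Mmp12 and Mmp13 gained theirs in that fit and without a filter. In MI + UA against Sham, Mmp23 lost its call after thinning and Mmp16 in the fit of the compared groups alone. DESeq2 gave no adjusted p for Mmp9 in MI against Sham. The cause was not tested. No paired analysis was possible because the groups share no rat numbers. With 6228706 to 19031695 reads on genes, more than 50% of them mitochondrial, genes near 0.1 CPM rest on 1 or 2 reads.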
